A study of Homo sapiens with 24 samples.

Results

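The mitosis genes are a set of 39 listed human genes whose products carry a cell from the onset of mitosis through chromosome segregation to the division of the cytoplasm. They were chosen by symbol, and the probes that the platform listing assigns to those symbols were read from the table of unnormalised signals. All 39 genes had at least 1 probe, 56 probes in total, of which 53 were detected on at least 3 arrays, and all 39 were among the 10351 genes tested. For each gene the detected probe with the highest mean stands for the gene.

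The cells were OCI-AML3, an established human acute myeloid leukaemia line, engineered with luciferase and GFP and grown in NSG mice, which carry the NOD/SCID/IL-2rγnull background and therefore lack most lymphoid cells of their own. Cells were sorted on GFP and human CD45 from blood, spleen and bone marrow of the same mouse, which gave 24 arrays from 8 mice. Mice 4, 5 and 6 were controls, mice 1, 2 and 3 received LY2510924 for 24 h, and mice 8 and 9 received it for 72 h. LY2510924, spelled LY2510294 in part of the labels, blocks the chemokine receptor CXCR4 and was injected under the skin daily at 2.5 mg/kg. The design asks how the site of growth and the inhibitor each alter expression in these cells. All results come from 1 cell line in an immunodeficient host. The groups were harvested on days 41 (24 h), 42 (control) and 43 (72 h), so treatment and harvest day cannot be told apart.

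A dividing cell builds these proteins late in the cycle. Cyclin-dependent kinase CDK1 with its cyclins starts mitosis, the spindle checkpoint holds the cell until every chromosome is attached to the spindle, and the anaphase-promoting complex then destroys securin and cyclin B so that the chromosomes separate. Transcription of this set is repressed in resting cells by the DREAM complex, which binds a short element near the start site called the cell cycle genes homology region (CHR), and is switched on in G2 by MYBL2 and FOXM1. NF-Y binds the CCAAT boxes that usually lie upstream of the CHR. In tumours the level of this set is widely read as a sign of how many cells are dividing.

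The promoters of 5 members are shown because these genes recur in the comparisons, and because of their motifs. CCAAT boxes lie close to the start site in all 5 promoters, and a CHR in a searched spelling in 4 of them. Each runs from 120 bases before to 50 bases after the start (RefSeq, GRCh38.p14), and capitals mark the CHR letters TTTGAA or TTCGAA and the CCAAT box, read on either strand (TTCAAA and ATTGG are the reverse strand forms).
CCNB1, chr5:69167030-69167199, plus strand: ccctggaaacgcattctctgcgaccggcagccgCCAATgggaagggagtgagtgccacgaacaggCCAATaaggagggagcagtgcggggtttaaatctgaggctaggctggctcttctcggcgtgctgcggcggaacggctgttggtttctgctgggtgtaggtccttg
CCNB2, chr15:59105026-59105195, plus strand: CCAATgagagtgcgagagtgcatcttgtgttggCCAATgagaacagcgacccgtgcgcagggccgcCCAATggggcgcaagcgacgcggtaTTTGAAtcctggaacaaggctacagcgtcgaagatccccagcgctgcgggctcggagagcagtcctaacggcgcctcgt
CDC20, chr1:43358861-43359030, plus strand: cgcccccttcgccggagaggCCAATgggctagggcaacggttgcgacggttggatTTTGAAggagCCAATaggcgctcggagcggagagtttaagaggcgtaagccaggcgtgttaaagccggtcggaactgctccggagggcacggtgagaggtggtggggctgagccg
PLK1, chr16:23678769-23678938, plus strand: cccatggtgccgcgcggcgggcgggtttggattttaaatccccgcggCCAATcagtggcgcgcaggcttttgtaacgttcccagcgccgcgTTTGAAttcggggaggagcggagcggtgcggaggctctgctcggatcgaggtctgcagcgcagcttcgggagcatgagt
KIF11, chr10:92593010-92593179, plus strand: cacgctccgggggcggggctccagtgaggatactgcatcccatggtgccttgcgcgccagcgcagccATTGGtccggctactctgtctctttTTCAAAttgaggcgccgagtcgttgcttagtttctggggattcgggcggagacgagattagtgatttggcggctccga

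CCNB2, CDC20 and PLK1 have 1 CHR each downstream of at least 1 CCAAT box, apart from the second box of CDC20, which follows its CHR. KIF11 has both elements in their reverse form. The CCNB1 stretch has 2 CCAAT boxes and neither CHR spelling. Only these spellings were searched, so any other form of the element would not be marked. Over windows of 250 bases before to 50 after the start, RefSeq promoters matched 33 of the 39 members by symbol. A CHR spelling was present in 26 of these 33 (78.8%), against 12% of 8316 promoters of the other genes tested and 17.1% of all 27305 promoters in the table. CCAAT was present in 75.8% of members' promoters, against 36.5% and 35.4%, and both motifs together in 60.6%, against 5.0% and 6.8%. An E2F site, searched as the letters TTGGCGC, as the letters TTCGCGC, in the variant spelled TTCCCGC and in the one that reads TTGGCGG, was present in 39.4%, against 20.8% and 13.6%. Neither CHR nor CCAAT was found in the windows of CENPE and KIF2C, 6.1% of members' promoters, against 56.4% of those of other genes tested. These matches are descriptions of letters on both strands, some of which overlap, not measured binding.

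Values are quantile normalised log2 intensities, so 1 unit is a doubling of signal, and they are compared between arrays for the same gene and not between genes. Between 13066 and 15721 probes were detected per array, where detected means a detection p under 0.01 against the negative control probes. Of the mitosis genes, 28 were detected on all 24 arrays and 10 on 17 to 23 arrays (PLK1, TTK, BUB1B, MAD2L1, NDC80, NUF2, KIF4A, KIF23, ANLN and MKI67), while INCENP was detected on 9, so its low values are limited by background. Arrays of the 24 h blood group correlated by 0.894 to 0.970 with each other, the 72 h pairs by 0.934 in blood and 0.938 in spleen, and control arrays by at least 0.978 within a site. The control blood array of mouse 6 and the 72 h blood array of mouse 8 stood apart in the values below, and counts that change without them are given both ways.

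Averaged over the 39 genes, the level was lowest in blood. The mean was 9.12, 8.95 and 7.82 in control blood of mice 4, 5 and 6, 7.70, 8.0 and 8.37 in 24 h blood of mice 1, 2 and 3, and 8.05 and 8.27 in 72 h blood of mice 8 and 9. Spleen of the same mice in the same order had 9.73, 9.66 and 9.66, then 8.43, 8.50 and 8.73, then 8.48 and 9.20. Marrow had 9.64, 9.68 and 9.67, then 8.77, 9.16 and 9.57, then 8.92 and 9.64. Control spleen and control marrow covered the same narrow range, every blood array lay below every control spleen and control marrow array, and the treated spleens lay between 8.43 and 9.20. Control blood of mouse 6 lay clearly below the other 2 control blood arrays. In samples of many cells, fewer dividing cells and less of these RNAs per cell cannot be told apart.

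**Figure D1:**
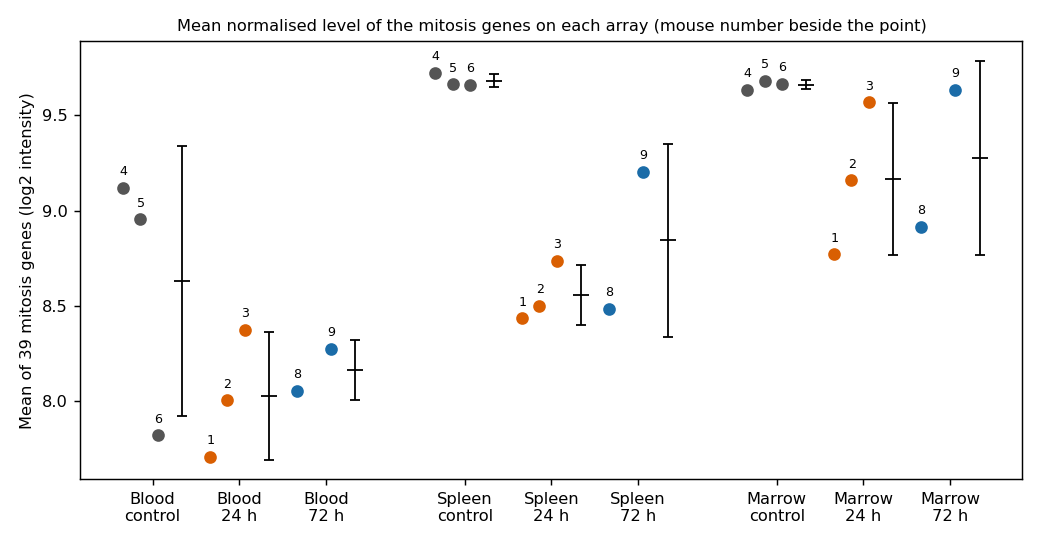
Each point is 1 array, placed at the mean normalised log2 intensity of the 39 mitosis genes, with the mouse number beside it; the bar beside each group is its mean ± SD (n = 3 mice, or 2 for 72 h). Control spleen and marrow sit at 9.64 to 9.73, and the 8 blood arrays run from 7.70 to 9.12.

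All 39 mitosis genes were lower in blood cells than in marrow cells of the same mice, where 26.7% of all genes tested were lower. The comparison ran within mice over all 3 treatment groups, with limma, mouse as a block and Benjamini-Hochberg adjustment over all 10351 genes, at a threshold of 0.05. Their differences ran from -1.84 for MAD2L1 to -0.47 for BIRC5 with a median of -1.03, a 2.05-fold lower level, against -0.03 for all genes. In 30 of the 39 genes blood lay below marrow in 8 of 8 mice, as it did for 13.2% of all genes, and in the other 9 it did so in 6 or 7 mice. The median difference was -0.47, -0.67 and -1.92 in control mice 4, 5 and 6, -0.99, -1.25 and -1.17 in the 24 h mice and -0.88 and -1.39 in the 72 h mice. Mouse 6 thus had the largest drop and the other 2 control mice the smallest ones. Blood lay below marrow without overlap for 37 genes in control mice (background 23.2%), 22 in 24 h mice (background 18.5%) and 33 in 72 h mice (background 29.7%). Over all mice, 37 of the 39 genes passed without the blood array of mouse 6, CDC20 and BIRC5 being the exceptions, and all 39 without that of mouse 8. With normalisation, 2762 of the 4981 genes called were lower in blood, and with deposited values left unscaled 2152 of 2997 were, among them 38 members. The mean level of 4 small RNAs, SNORD3A, SNORD3C, SNORD3D and RN7SK, was higher on every blood array, at 11.01 to 14.07 in blood against 8.03 to 9.41 in marrow, and its part in the result was not tested.

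**Figure D2:**
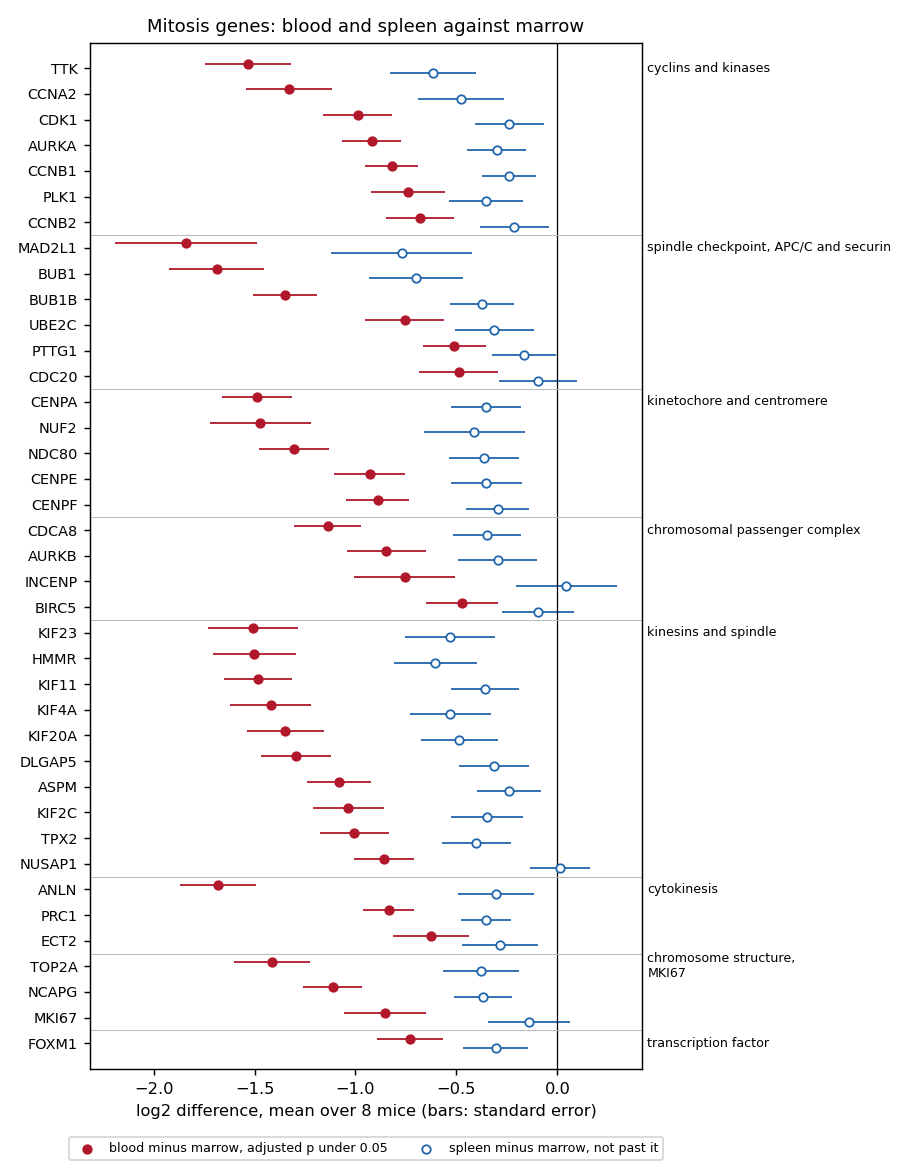
Points are log2 differences over 8 mice, blood minus marrow (red) and spleen minus marrow (blue), with their standard errors from limma; genes are grouped by role, and filled points passed an adjusted p of 0.05. All 39 red points lie at or below -0.47, and all blue points are open, between -0.77 and 0.04.

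The 7 cyclins and kinases that drive entry into mitosis fell in blood by a median of 0.92 on the log2 scale. For CDK1, the kinase that triggers mitosis, values are given by mouse in the order named above. Blood cells had 8.30, 8.26 and 6.96 in the control mice, 6.99, 7.02 and 8.16 in the 24 h mice and 7.88 and 7.84 in the 72 h mice. Marrow cells had 9.11, 8.90 and 8.95 in the control mice, 8.06, 8.61 and 8.68 in the 24 h mice and 8.23 and 9.02 in the 72 h mice. The blood values of mouse 6 and of mice 1 and 2 were the lowest, and blood and marrow did not overlap in the control and 72 h groups. The difference was -0.99 ± 0.17 (± SE, adjusted p = 3.66e-04). CCNB1 encodes cyclin B1, the partner that activates CDK1. Blood cells had 9.54, 9.24 and 8.49 in the control mice, 8.23, 8.91 and 8.87 in the 24 h mice and 8.16 and 8.72 in the 72 h mice. Marrow cells had 9.73, 9.93 and 9.72 in the control mice, 8.90, 9.21 and 9.91 in the 24 h mice and 9.14 and 9.92 in the 72 h mice. Every mouse had less in blood, with differences of -1.23 to -0.19, and over all mice the difference was -0.82 ± 0.13 (adjusted p = 2.38e-04).

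PLK1, the polo-like kinase of spindle assembly and mitotic exit, was near background and was not detected on 7 arrays of treated mice. Blood cells had 6.60, 6.56 and 5.77 in the control mice, 6.12, 6.20 and 5.48 in the 24 h mice and 6.09 and 6.02 in the 72 h mice. Marrow cells had 7.67, 7.34 and 7.20 in the control mice, 5.71, 6.13 and 6.47 in the 24 h mice and 6.55 and 7.45 in the 72 h mice. Blood was lower in 6 of 8 mice, and the 2 exceptions, mice 1 and 2, had marrow values that were themselves low. The difference was -0.74 ± 0.18 (adjusted p = 0.00456). Among the other kinases and cyclins of the group, TTK, which starts the checkpoint signal, fell by 1.53, a size that background limits since it was detected on 4 of 8 blood arrays. Cyclin A2 (CCNA2) fell by 1.33, the centrosome kinase AURKA by 0.92 and cyclin B2 (CCNB2) by 0.68 on the log2 scale. All 4 were lower in blood in 8 of 8 mice.

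FOXM1, the forkhead factor that activates this set in G2, was lower in blood in 8 of 8 mice. Blood cells had 7.57, 7.58 and 6.23 in the control mice, 6.54, 7.39 and 6.59 in the 24 h mice and 8.19 and 7.90 in the 72 h mice. Marrow cells had 8.08, 8.13 and 7.95 in the control mice, 7.10, 7.72 and 7.71 in the 24 h mice and 8.38 and 8.90 in the 72 h mice. The 72 h mice kept the highest blood values, and mouse 6 had the lowest. The difference was -0.73 ± 0.16 (adjusted p = 0.00214), which places FOXM1 among the smaller falls of the set.

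The checkpoint, anaphase-promoting complex and securin genes spanned nearly the whole range of the set. MAD2L1, the checkpoint protein that binds CDC20 at unattached chromosomes, had the largest fall. Blood cells had 9.02, 9.46 and 7.86 in the control mice, 6.12, 5.89 and 9.11 in the 24 h mice and 6.77 and 7.14 in the 72 h mice. Marrow cells had 10.21, 10.07 and 10.19 in the control mice, 9.75, 9.50 and 10.10 in the 24 h mice and 7.74 and 8.97 in the 72 h mice. Mice 1 and 2 had the lowest blood values, with no detection in mouse 2, while mouse 3 of the same treatment stayed at 9.11. The difference was -1.84 ± 0.35, a 3.58-fold lower level (adjusted p = 7.52e-04), while a dimmer probe, detected on 6 arrays, gave -0.41 ± 0.16. BUB1, the kinase that recruits checkpoint proteins to the centromere, followed. Blood cells had 8.38, 8.40 and 6.59 in the control mice, 6.32, 6.37 and 7.50 in the 24 h mice and 6.88 and 6.47 in the 72 h mice. Marrow cells had 9.21, 9.26 and 9.30 in the control mice, 8.52, 8.76 and 9.18 in the 24 h mice and 7.58 and 8.79 in the 72 h mice. In none of the treatment groups did blood and marrow overlap, and the difference was -1.69 ± 0.23 (adjusted p = 7.05e-05). BUB1B, a component of the checkpoint complex that restrains the anaphase-promoting complex, likewise did not overlap. Blood cells had 8.33, 7.97 and 6.68 in the control mice, 6.83, 6.70 and 7.74 in the 24 h mice and 5.72 and 6.93 in the 72 h mice. Marrow cells had 8.67, 8.63 and 8.59 in the control mice, 8.09, 8.18 and 8.87 in the 24 h mice and 7.91 and 8.31 in the 72 h mice. The 72 h blood array of mouse 8 was not detected, and the difference was -1.35 ± 0.16 (adjusted p = 2.01e-05).

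The members on which the checkpoint acts had smaller differences. CDC20, the activator of the anaphase-promoting complex that the checkpoint restrains, was lower in blood in 6 of 8 mice. Blood cells had 11.53, 11.28 and 10.73 in the control mice, 10.21, 11.31 and 9.95 in the 24 h mice and 12.14 and 11.41 in the 72 h mice. Marrow cells had 12.09, 11.92 and 12.08 in the control mice, 10.42, 10.99 and 11.63 in the 24 h mice and 11.55 and 12.18 in the 72 h mice. Blood lay above marrow in mouse 2 and mouse 8, and the difference of -0.49 ± 0.19 just passed the threshold (adjusted p = 0.04999). It did not pass without mouse 1, 3, 4, 5, 6 or 9. PTTG1, which encodes securin, was lower in 7 of 8 mice. Blood cells had 11.15, 10.71 and 10.02 in the control mice, 10.47, 10.83 and 10.80 in the 24 h mice and 11.31 and 10.85 in the 72 h mice. Marrow cells had 11.45, 11.41 and 11.24 in the control mice, 10.76, 10.90 and 11.42 in the 24 h mice and 11.20 and 11.88 in the 72 h mice. Mouse 8 was the exception, and the difference was -0.51 ± 0.16 (adjusted p = 0.0162). UBE2C, the ubiquitin-conjugating enzyme of the complex, was lower in 8 of 8 mice. Blood cells had 11.74, 11.52 and 10.12 in the control mice, 10.89, 11.45 and 11.08 in the 24 h mice and 11.93 and 11.66 in the 72 h mice. Marrow cells had 12.18, 12.14 and 12.46 in the control mice, 11.06, 11.63 and 12.004 in the 24 h mice and 12.23 and 12.79 in the 72 h mice. Mouse 6 had the lowest blood value and the difference was -0.76 ± 0.20 (adjusted p = 0.00605).

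All 5 kinetochore and centromere genes fell in blood, by a median of 1.30. CENPA, the histone H3 variant that marks centromeres, is given in full. Blood cells had 9.14, 8.66 and 7.40 in the control mice, 7.40, 7.57 and 8.67 in the 24 h mice and 6.54 and 7.47 in the 72 h mice. Marrow cells had 9.61, 9.59 and 9.66 in the control mice, 8.56, 9.19 and 9.43 in the 24 h mice and 8.55 and 9.57 in the 72 h mice. The lowest value, 6.54, was in blood of mouse 8, and the 24 h groups overlapped through mouse 3. The difference was -1.49 ± 0.17 (adjusted p = 1.88e-05). The 2 CENPA probes disagree: the dimmer one, also detected on all 24 arrays, gave -0.33 ± 0.19 and did not pass (adjusted p = 0.168 over kept probes). NDC80 and NUF2, which form the rod that holds microtubules at the kinetochore, fell by 1.30 and 1.47, and the kinetochore motor CENPE and the large kinetochore protein CENPF by 0.93 and 0.89 on the log2 scale. Background limits the size for NDC80, which was detected on 4 of 8 blood arrays.

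The chromosomal passenger complex corrects wrong attachments and then moves to the division plane. Its 4 members had a median of -0.80. AURKB is its kinase. Blood cells had 9.59, 9.25 and 8.0 in the control mice, 8.82, 9.21 and 9.11 in the 24 h mice and 9.83 and 9.14 in the 72 h mice. Marrow cells had 10.15, 10.24 and 10.27 in the control mice, 8.78, 9.47 and 9.79 in the 24 h mice and 10.28 and 10.62 in the 72 h mice. Blood was lower in 7 of 8 mice, with mouse 1 level, and the difference was -0.85 ± 0.20 (adjusted p = 0.00283). BIRC5, which encodes survivin and tethers the complex, had the smallest difference of the 39 genes by the probes chosen here. Blood cells had 9.37, 9.83 and 8.92 in the control mice, 8.80, 9.33 and 7.84 in the 24 h mice and 10.84 and 9.97 in the 72 h mice. Marrow cells had 9.79, 10.41 and 10.12 in the control mice, 9.30, 9.71 and 9.13 in the 24 h mice and 10.04 and 10.69 in the 72 h mice. Blood and marrow overlapped in every treatment group, mouse 8 had 10.84 in blood against 10.04 in marrow, and the difference was -0.47 ± 0.18 (adjusted p = 0.0413). A dimmer BIRC5 probe, detected on 21 arrays, gave -1.02 ± 0.16, so its place in the order depends on the probe. CDCA8, which encodes borealin, fell by 1.14. The scaffold INCENP had a fitted difference of -0.76 ± 0.25, which background limits.

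The 10 kinesins and spindle proteins fell together by a median of 1.32 on the log2 scale, from -1.51 for KIF23, a motor of the spindle midzone, to -0.86 for the microtubule binder NUSAP1. Background limits the size for KIF23, which was detected on 5 of 8 blood arrays. A dimmer NUSAP1 probe, also detected on all 24 arrays, gave -1.22 ± 0.19, so the place of NUSAP1 in the order depends on the probe. KIF11, the motor that pushes the spindle poles apart, showed the spread. Blood cells had 9.13, 9.0 and 7.87 in the control mice, 7.68, 7.40 and 8.63 in the 24 h mice and 6.92 and 7.58 in the 72 h mice. Marrow cells had 9.69, 9.89 and 9.81 in the control mice, 9.04, 9.36 and 9.80 in the 24 h mice and 8.87 and 9.28 in the 72 h mice. Blood and marrow did not overlap in any treatment group, and the difference was -1.48 ± 0.17 (adjusted p = 1.49e-05). The others were the hyaluronan receptor HMMR at -1.50, the chromosome arm motor KIF4A at -1.42, the cytokinesis motor KIF20A at -1.35, the spindle proteins DLGAP5 at -1.29 and ASPM at -1.08, the microtubule depolymerase KIF2C at -1.03 and the spindle assembly factor TPX2 at -1.01.

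Of the cytokinesis genes, ANLN, which encodes the ring protein anillin, changed most. Blood cells had 8.85, 8.77 and 7.33 in the control mice, 7.03, 7.25 and 8.49 in the 24 h mice and 5.37 and 7.19 in the 72 h mice. Marrow cells had 9.60, 9.44 and 9.44 in the control mice, 8.95, 9.35 and 9.50 in the 24 h mice and 8.0 and 8.92 in the 72 h mice. No group overlapped, and blood of mouse 8, at 5.37, was not detected. The difference was -1.68 ± 0.19 (adjusted p = 1.41e-05), or -1.37 ± 0.19 for blood against spleen. The microtubule bundler PRC1 fell by 0.84 and the exchange factor ECT2 by 0.63, ECT2 in 7 of 8 mice.

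TOP2A, the topoisomerase that untangles sister chromatids, stood for the chromosome structure genes. Blood cells had 10.48, 10.48 and 8.85 in the control mice, 8.85, 9.14 and 9.91 in the 24 h mice and 8.99 and 9.02 in the 72 h mice. Marrow cells had 11.12, 11.08 and 11.15 in the control mice, 10.08, 10.81 and 11.32 in the 24 h mice and 9.99 and 11.27 in the 72 h mice. Blood lay below marrow in each group without overlap, and the difference was -1.41 ± 0.19 (adjusted p = 5.22e-05). The condensin subunit NCAPG fell by 1.11. MKI67, the gene of the Ki-67 antigen that pathologists use to score dividing cells, had a low signal and was not detected on 7 arrays. Blood cells had 6.39, 6.02 and 5.32 in the control mice, 5.35, 6.53 and 5.13 in the 24 h mice and 5.53 and 6.39 in the 72 h mice. Marrow cells had 6.75, 6.43 and 6.89 in the control mice, 5.58, 6.26 and 6.79 in the 24 h mice and 6.92 and 7.47 in the 72 h mice. Blood of mouse 2 lay above its marrow, and the difference was -0.85 ± 0.20 (adjusted p = 0.00357).

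Within treatment groups the direction was nearly always the same, with fewer genes past the threshold. In the 24 h mice 28 genes were lower in blood than in marrow (background 19.9%), with a median of -1.06. In the 72 h mice 21 were lower (background 10.4%), with a median of -1.10, and 1 gene, BIRC5, had a difference above 0. In the control mice 31 were lower (background 7.26%), with a median of -1.09. That count fell to 0 without the blood array of mouse 6, when the median was -0.61, though all 39 differences stayed below 0, and to 7 without mouse 5. The 24 h count was 18 without mouse 2, and the 72 h count 3 without mouse 8, 7 without mouse 9 and 13 without mouse 5. In a test of whether the blood to marrow difference depended on treatment, limma called 0 members for 24 h against control (3 at an unadjusted p under 0.05, background 0.203% lower) and 0 for 72 h against control (0 unadjusted, background 1.09%).

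Spleen differed little from marrow in control mice. The median of the 39 genes was 0.04 there, and limma called 0 members (0 at an unadjusted p under 0.05, background 0.106% lower). In the 24 h mice the median was -0.55, all 39 differences were below 0 and 4 genes fell (background 6.69%). These were CENPF (-0.87 ± 0.25, adjusted p = 0.033), BUB1 (-1.22 ± 0.37, adjusted p = 0.0434), NDC80 (-1.03 ± 0.28, adjusted p = 0.0246) and CCNB1 (-0.79 ± 0.21, adjusted p = 0.0252). These 4 calls became 0 without mouse 3, 1 without mouse 1 or 2, 2 without mouse 4 or 5, and 14 without the control blood array of mouse 6. In the 72 h mice the median was -0.49 and limma called 0 members (3 unadjusted, background 0.116%). Over all mice limma called 0 (12 unadjusted, background 4.58%), with a median of -0.35, 6 calls without the control blood array of mouse 6, and only TTK lower in 8 of 8 mice (background 4.86%). The change of the spleen to marrow difference with treatment was tested too, and limma called 0 members at 24 h (8 unadjusted, background 0.00966%) and 0 at 72 h (1 unadjusted, background 0.00966%).

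Blood lay below spleen for all 39 genes over all mice, with a median of -0.79, and 30 of them passed the threshold (background 13%). Blood was lower in 8 of 8 mice for 18 genes, against 5.23% of all genes. The 9 that did not pass were AURKB, BIRC5, CCNB2, CDC20, ECT2, FOXM1, PLK1, PTTG1 and UBE2C. All 10 kinesins and spindle genes and all 5 kinetochore genes were among those lower. In the control mice 18 genes were lower (background 2.08%), in the 24 h mice limma called 0 (17 unadjusted, background 0.985%), and in the 72 h mice 5 were lower, ANLN, BUB1B, CCNB1, KIF11 and CENPA (background 2.74%). The 18 in control mice became 0 without the blood array of mouse 6 or without mouse 5, 1 without mouse 4, 11 without mouse 2 and 28 without the blood array of mouse 8. The 5 in 72 h mice became 0 without the blood array of mouse 8, 9 without that of mouse 6, 1 without mouse 4 or 5 and 3 without mouse 1. The 30 over all mice became 19 without mouse 9, and the 24 h mice had 7 calls without mouse 3. The mean ran from marrow over spleen to blood for 16 of 39 genes in control mice, 35 in 24 h mice and 36 in 72 h mice, where 27.6%, 27% and 28.7% of all genes had that order.

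**Figure D3:**
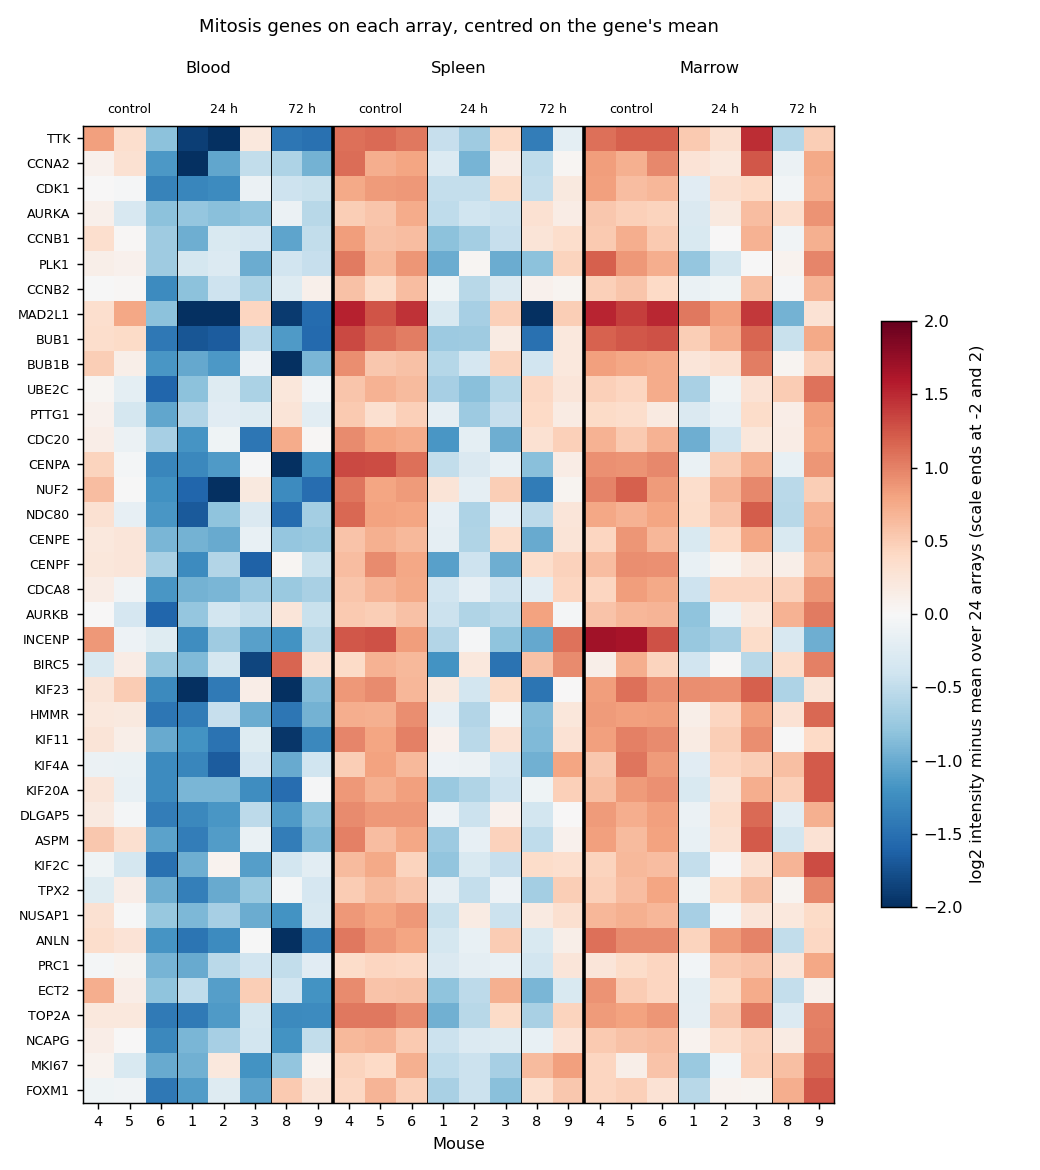
Rows are the 39 mitosis genes grouped by role and columns the 24 arrays by site and mouse; colour is the log2 intensity minus the gene's mean over all arrays, limited to -2 and 2. Blood columns are mostly blue apart from those of control mice 4 and 5, which are pale and include red cells, and the control spleen and marrow columns are mostly red.

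The inhibitor comparisons ask what changed at each site after 24 h or 72 h. They used group means without the mouse block, and they share the same control arrays. The 24 h spleen held the most members past the threshold, with a median difference of -1.05 over the 39 genes, a 2.07-fold lower level, against -0.00317 for all genes. Of the 39, 20 fell (background 5.96%) and all 39 differences were below 0, from -1.61 to -0.61. For 38 genes the 3 treated spleens lay below all 3 control spleens, as for 18.3% of all genes. The exception was ECT2, in which mouse 3 reached 8.49. The count rests on few mice: it was 4 without control mouse 4, 5 without mouse 1 or mouse 5 and 12 without mouse 6, while all 39 differences stayed below 0. Within the BeadChip that carried the 24 h mice and mouse 4, the median was -1.09 and limma called 0 members, but mouse 4 is the only control there and is assumed to vary like the other groups. Of 12 monocyte and granulocyte markers 3 rose in the same comparison, TREM1 by 2.06, CD14 by 1.82 and VCAN by 0.94, and of 5 T and NK cell markers GNLY rose by 2.62. The small RNA mean was 9.51, 10.31 and 7.85 in 24 h spleens, against 9.18, 8.21 and 8.89 in control spleens, overlapping. The part of these in the result was not tested.

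CENPF had the largest fall in 24 h spleen, -1.61 ± 0.27 (adjusted p = 0.00169), with 10.79, 11.11 and 10.95 in control spleens, 9.09, 9.75 and 9.19 in 24 h spleens and 10.52 and 10.64 in 72 h spleens. The 24 h spleens were the lowest of the 3 groups and did not overlap the others. CDC20 fell as far, by 1.60 on the log2 scale (adjusted p = 0.00675), with 12.34, 12.19 and 12.13 in control spleens, 10.24, 11.20 and 10.42 in 24 h spleens and 11.70 and 11.87 in 72 h spleens. Its 24 h values were spread, all below the control and 72 h spleens. CCNB1 fell by 1.33 (adjusted p = 0.00633) with 10.04, 9.79 and 9.82 in control spleens, 8.38, 8.53 and 8.74 in 24 h spleens and 9.46 and 9.55 in 72 h spleens, a tight group of treated values apart from the controls. UBE2C fell by 1.31 (adjusted p = 0.0113) with 12.26, 12.40 and 12.35 in control spleens, 11.05, 10.88 and 11.14 in 24 h spleens and 12.13 and 11.95 in 72 h spleens, and the 72 h values lay just under the control range.

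PLK1 fell by 1.50 in 24 h spleen (adjusted p = 0.00949), with 7.51, 7.12 and 7.36 in control spleens, 5.49, 6.51 and 5.48 in 24 h spleens and 5.65 and 6.92 in 72 h spleens. Mice 1 and 3 were not detected, so the size of that fall is limited by background. AURKB fell by 1.06 (adjusted p = 0.0402), with 10.10, 10.08 and 10.17 in control spleens, 9.15, 8.98 and 9.04 in 24 h spleens and 10.39 and 9.54 in 72 h spleens, and 1 of the 72 h spleens lay above every control. BIRC5 fell by 1.40 (adjusted p = 0.0282), with 10.07, 10.37 and 10.33 in control spleens, 8.49, 9.89 and 8.21 in 24 h spleens and 10.27 and 10.62 in 72 h spleens, and mouse 2 stood well above mice 1 and 3. PTTG1, securin, fell by 0.90 (adjusted p = 0.0276), with 11.58, 11.38 and 11.54 in control spleens, 10.87, 10.32 and 10.59 in 24 h spleens and 11.45 and 11.22 in 72 h spleens. FOXM1 fell by 1.15 (adjusted p = 0.0182), with 8.06, 8.33 and 8.12 in control spleens, 7.01, 7.23 and 6.82 in 24 h spleens and 7.99 and 8.19 in 72 h spleens, and at 72 h 1 value lay inside the control range and 1 just under it. The INCENP scaffold was detected on no 24 h spleen and was at least 2.15-fold lower (adjusted p = 0.0197).

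CENPA fell by 1.56 in 24 h spleen (adjusted p = 0.0186), with 10.02, 10.002 and 9.80 in control spleens, 8.21, 8.40 and 8.55 in 24 h spleens and 7.86 and 8.84 in 72 h spleens. BUB1 fell by 1.58 (adjusted p = 0.0349), with 9.35, 9.14 and 9.04 in control spleens, 7.29, 7.31 and 8.19 in 24 h spleens and 6.53 and 8.24 in 72 h spleens. TOP2A fell by 1.40 (adjusted p = 0.0485), with 11.33, 11.33 and 11.22 in control spleens, 9.31, 9.72 and 10.65 in 24 h spleens and 9.63 and 10.71 in 72 h spleens. In all 3 genes mouse 3 was the highest of the treated spleens at 24 h and mouse 8 the lowest at 72 h. The remaining genes past the threshold were AURKA, KIF20A, KIF2C, NUSAP1, NCAPG, CDCA8 and NDC80, with differences from -1.39 to -0.94. Each of the role groups was represented except cytokinesis, where ANLN, PRC1 and ECT2 did not pass.

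Named genes that did not pass in 24 h spleen also lay below control on each array. CDK1 had 9.05, 9.14 and 9.15 in control spleens, 7.81, 7.80 and 8.67 in 24 h spleens and 7.80 and 8.47 in 72 h spleens, a difference of -1.02 ± 0.36 (adjusted p = 0.0685). BUB1B had 8.78, 8.38 and 8.44 in control spleens, 7.28, 7.51 and 8.30 in 24 h spleens and 7.47 and 8.05 in 72 h spleens, a difference of -0.84 ± 0.40 (adjusted p = 0.178). KIF11 had 9.85, 9.65 and 9.89 in control spleens, 8.96, 8.33 and 9.15 in 24 h spleens and 8.0 and 9.17 in 72 h spleens, a difference of -0.98 ± 0.37 (adjusted p = 0.0828). The treated arrays of these 3 genes were more scattered than the controls. ANLN had 9.55, 9.37 and 9.29 in control spleens, 8.15, 8.35 and 9.01 in 24 h spleens and 8.19 and 8.62 in 72 h spleens, a difference of -0.90 ± 0.45 (adjusted p = 0.204). MKI67 had 6.76, 6.73 and 7.03 in control spleens, 5.81, 5.90 and 5.66 in 24 h spleens and 6.95 and 7.14 in 72 h spleens, a difference of -1.05 ± 0.35 (adjusted p = 0.0562), with mice 2 and 3 not detected, and its 72 h values overlapped the controls. MAD2L1 had 10.23, 9.95 and 10.14 in control spleens, 8.39, 8.02 and 9.16 in 24 h spleens and 5.52 and 9.18 in 72 h spleens, a difference of -1.58 ± 0.76 (adjusted p = 0.183), and the 72 h spleen of mouse 8 was not detected.

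In 72 h spleen, with 2 mice, the median difference from control was -0.77 and limma called 0 members (18 at an unadjusted p under 0.05, background 0.357% lower). The groups did not overlap for 32 genes, against 23.7% of all genes. Without mouse 3 the count was 7 and without mouse 9 it was 14, the lone remaining 72 h mouse being assumed to vary like the other groups. In marrow the medians were -0.39 at 24 h and -0.39 at 72 h. At 24 h limma called 0 members in marrow (7 unadjusted, background 0% lower), and 15 genes lay below control without overlap (background 15%). At 72 h only INCENP was called in marrow (background 0.966%), detected on neither 72 h array and at least 2.69-fold lower (adjusted p = 0.0201), a call lost without any of the 3 control mice. Without overlap, 14 genes lay below control there and 4 above it, where 27.8% and 29.5% of all genes did. The member mean of 24 h marrow was 8.77 in mouse 1 and 9.57 in mouse 3, the second close to the control marrows.

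In blood the 24 h mice had a median difference of -0.58 from control, and limma called 0 members (8 unadjusted, background 0.0193% lower). Groups did not overlap for 1 gene, against 6.69% of all genes, and the member mean of control mouse 6 lay within the range of the 24 h mice. Without the blood array of mouse 6 the 24 h median was -0.99 with 0 calls again, and without mouse 3 there were 7 calls. At 72 h the genes split, with 27 differences below 0 and 12 above 0 and a median of -0.53. Of these, 5 fell, fewer in proportion than the 20% of all genes that were lower in 72 h blood, and 1 rose, where 13.8% of all genes rose. ANLN fell by 2.04 (adjusted p = 0.00724), KIF11 by 1.42 (adjusted p = 0.0148), CENPA by 1.39 (adjusted p = 0.0271) and BUB1B by 1.34 (adjusted p = 0.0281) on the log2 scale. TTK was detected on neither 72 h blood array and was at least 2.37-fold lower (adjusted p = 0.0484). FOXM1 rose by 0.92 (adjusted p = 0.0436), with 72 h blood at 8.19 and 7.90 against 7.57, 7.58 and 6.23 in control blood, no overlap between them. In all, 6 genes lay below control blood and 2 above it without overlap, where 30.9% and 25.9% of all genes did. The 6 calls in 72 h blood became 0 without the blood array of mouse 8 and 16 without that of control mouse 6. They became 1 without mouse 4, 0 without mouse 5 and 11 without mouse 3. These recomputed counts are given without the share of all genes called in the same fit, so they cannot be read against background. Of 3 erythroid markers 2 rose in 72 h blood (median 1.74), though HBD and ALAS2, 2 of these 3, were each detected on only 1 of 8 blood arrays. Of 12 monocyte and granulocyte markers 5 rose and 1 fell (median 0.74). The part of these markers in the result was not tested.

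**Figure D4:**
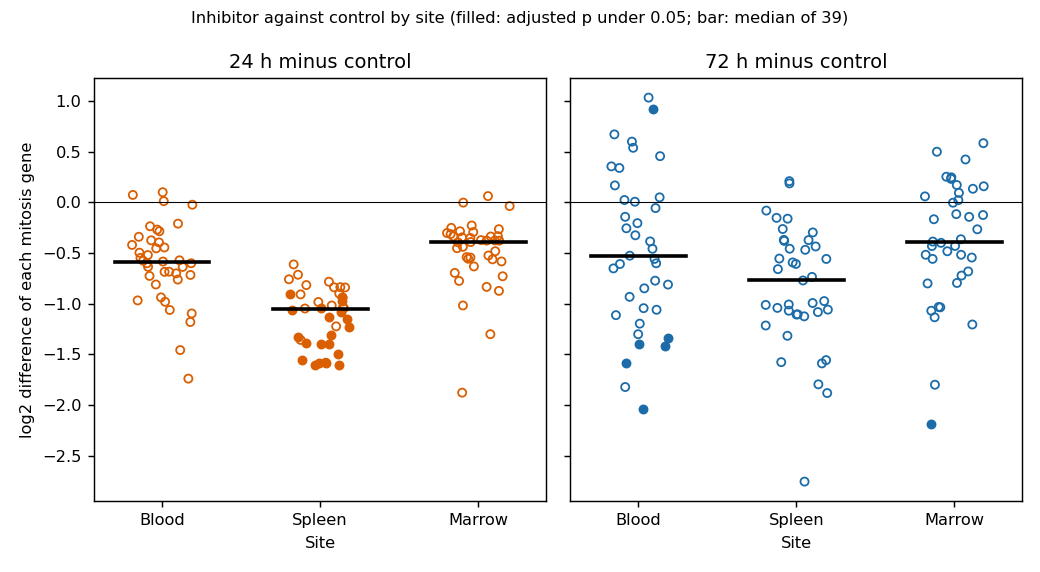
Each circle is 1 mitosis gene, placed at its log2 difference from control at 24 h (left) or 72 h (right) in blood, spleen and marrow; bars are medians of 39 genes and filled circles passed an adjusted p of 0.05. The 24 h spleen has 20 filled circles around a median of -1.05, and 72 h blood runs from -2.04 to 1.03.

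Averaged over the 3 sites of each mouse, INCENP and CENPF were lower at 24 h (background 0.338%), with a median of -0.67 for the set. CENPF fell by 1.16, and INCENP was detected on 1 of the 9 treated arrays, so no size is given for it. Limma called 0 members at 24 h without mouse 1, 4, 5 or 6 or with the BeadChip as a block, and 6 without mouse 2 or 3. At 72 h 9 members were lower (background 13.3%): MAD2L1, TTK, INCENP, ANLN, BUB1, KIF23, NUF2, CENPA and KIF11, from -2.13 to -1.12. That count was 0 without mouse 4, 5, 6 or 8 or with the BeadChip as a block, 2 without mouse 1, 15 without mouse 9 and 16 without mouse 3. In the same comparison, where 1049 of all 10351 genes rose, 2 of 3 erythroid markers rose (median 2.05). Of the monocyte and granulocyte markers 4 of 12 rose (median 0.84). Among the erythroid markers, HBD was detected on 2 marrow, 4 spleen and 1 blood arrays and ALAS2 on 6, 6 and 1, so background limits both. The part of these markers in the result was not tested. Effects at 24 h and 72 h were not tested against each other, since the mice of each lay on different BeadChips. Likewise a member called in spleen and not in marrow or blood is not shown to differ between sites. The tests above of whether the spleen to marrow and blood to marrow differences depended on treatment gave 0 calls. The treatment effect in spleen was not tested against that in blood.

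**Figure D5:**
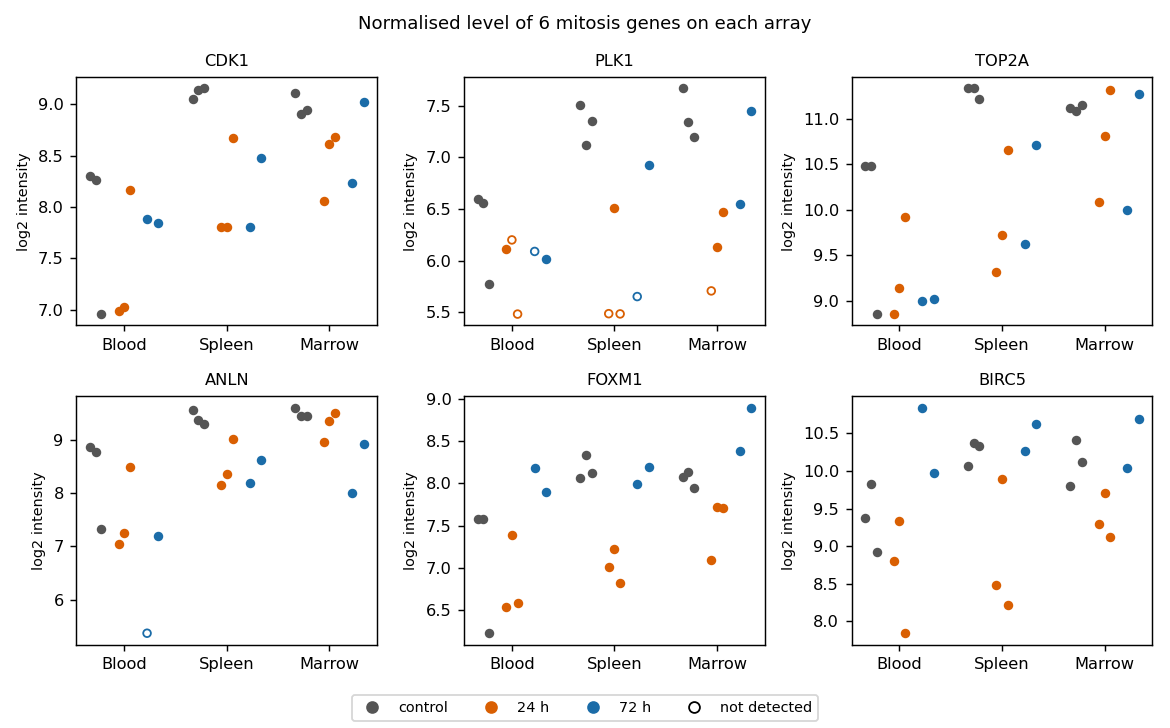
Log2 intensity of CDK1, PLK1, TOP2A, ANLN, FOXM1 and BIRC5 on each of the 24 arrays, by site and coloured by treatment, with open points where the probe was not detected; axes do not start at 0 and differ between panels. CDK1, TOP2A and ANLN have their lowest values in blood, and FOXM1 and BIRC5 stay high in the 72 h mice, at 7.90 and 9.97 or more.

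The 39 genes did not all follow the arrays alike. Across the 24 arrays the correlation of a gene with the mean of the other members was highest for CDCA8 (0.963), DLGAP5 (0.963) and NCAPG (0.958) and lowest for BIRC5 (0.470), CDC20 (0.678) and FOXM1 (0.703). The arrays share mice, sites and groups, so these are descriptions. All 53 probes gave a lower value in blood than in marrow and 50 passed the limma threshold, adjusted over probes. The only probe of CDC20 was among those that did not pass (adjusted p = 0.054 over kept probes). Of the genes with printed promoters, KIF11 had the largest blood to marrow difference (-1.48), ahead of CCNB1 (-0.82), PLK1 (-0.74), CCNB2 (-0.68) and CDC20 (-0.49), and CENPE and KIF2C, without a CHR or CCAAT match, stood at -0.93 and -1.03. For the 14 genes with several detected probes, 14 of 14 second probes were lower and 12 passed, those of CENPA and UBE2C being the exceptions. Outside the set, the 10 genes with the highest correlation to its mean over the 24 arrays ran from the phosphatase gene CDKN3 (0.958) to RRM1 (0.924), a subunit of ribonucleotide reductase. Between them were the tubulin regulator STMN1, thymidylate synthase TYMS, the kinetochore gene SPC25, the kinase PBK, the CENPA chaperone HJURP, PARPBP, the kinesin KIF15 and MDC1.

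Other cell cycle genes were read from lists of related functions. In blood against marrow over all mice, where 26.7% of all genes were lower and 21.4% higher, 20 of 27 other kinetochore and centromere genes fell and 1 rose, with a median of -0.43. The centromere guardian SGO2 fell by 1.20 and CENPU by 1.20, the checkpoint scaffold KNTC1 fell by 0.77, and MAD1L1, the anchor of MAD2L1, rose by 0.96. Of other spindle and cytokinesis genes 19 of 22 fell and 1 rose, with a median of -0.88, the falls including KIF14 (-1.48 ± 0.22), KIFC1 (-1.23 ± 0.18), CEP55 (-1.16 ± 0.16) and STMN1 (-1.13 ± 0.10). Condensin and cohesin genes fell in 9 of 11 and rose in 2, with a median of -0.72, led by NCAPG2 at -1.53, SMC4 at -1.08, STAG2 at -0.97 and SMC2 at -0.94. The list of the anaphase-promoting complex, its regulators and separase had 6 of 12 genes lower, 1 higher and a median of -0.23. The subunit CDC23 of the complex and the protease separase (ESPL1) each fell by 0.80, the inhibitor FBXO5 by 0.78 and ANAPC1 by 0.71.

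Regulators of the G2 to mitosis switch were lower in 8 of 11 and higher in 1, with a median of -0.57. CDC25A, a phosphatase that activates cyclin-dependent kinases, fell by 1.55, the inhibitory kinase PKMYT1 by 1.06, cyclin F (CCNF) by 1.03 and the kinase MASTL by 0.73 on the log2 scale. Of MYBL2, E2F and DREAM complex genes 5 of 11 fell and 2 rose, with a median of -0.34. LIN9, a core subunit of DREAM and of the MYBL2 complex, fell by 1.34, E2F7 by 0.93 and TFDP1 by 0.83, and the core subunit LIN37 rose by 0.88. Genes of G1/S and DNA replication fell in 20 of 21, with a median of -0.80, among them RRM2 (-1.47 ± 0.16), PRIM1 (-1.0 ± 0.12), MCM2 (-0.96 ± 0.10) and UNG (-0.95 ± 0.11). Of CDK inhibitors and quiescence genes 3 of 9 rose, CDKN1A, which encodes p21, by 1.37, TOB1 by 0.71 and CCNG2 by 0.52, and 2 fell, CCNG1 by 0.43 and CDKN1B, which encodes p27, by 0.84.

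In 24 h spleen against control spleen, 15 of 21 G1/S and replication genes fell (median -0.87), 10 of 27 other kinetochore genes fell and 1 rose (median -0.67), and 8 of 22 other spindle genes fell (median -0.83). These stand beside 5.96% of all genes lower and 6.55% higher. Of the CDK inhibitors and quiescence genes 4 of 9 rose, CDKN1A by 1.62, CDKN2B by 1.47, BTG1 by 0.92 and CDKN2D by 0.78 on the log2 scale. The anaphase-promoting complex and DREAM lists had medians of -0.32 and -0.17.

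Genes known as markers of other or more mature blood cells moved with the same comparisons, in cells sorted on GFP and human CD45, a sort meant to keep only the injected human line. Of 12 markers of mature monocytes and granulocytes, all detected, 9 were higher in blood than in marrow, led by CD14 (2.91 ± 0.19) and TREM1 (2.81 ± 0.17), and the log2 of their summed level was 15.45 to 16.20 in blood, 15.44 to 16.17 in spleen and 14.94 to 15.67 in marrow. T and NK cell markers had 5 of 12 genes tested, 4 higher and 1 lower in blood, with a summed level of 11.75 to 13.40 in blood, 10.90 to 13.32 in spleen and 9.87 to 11.87 in marrow, and the defining CD3D, CD3E, CD3G, CD8A, PRF1 and KLRD1 were detected on no array. Erythroid markers were lower in blood for 3 of 3 tested, with sums of 10.26 to 14.30 in blood, 14.09 to 14.33 in spleen and 13.02 to 14.38 in marrow. Of these 3, HBA2 was detected on every array. HBD was detected on 2 of 8 marrow, 4 of 8 spleen and 1 of 8 blood arrays, and ALAS2 on 6, 6 and 1, so background limits both. HBA1, HBG1, HBG2, SLC4A1, EPB42, AHSP and KLF1 were detected on no array. Of 6 macrophage markers tested 2 were higher and 2 lower in blood, with sums of 9.39 to 10.69 in blood, 9.59 to 10.63 in spleen and 9.37 to 10.32 in marrow. The 1 B cell marker tested did not pass, and MS4A1, PAX5 and BLK were detected on no array. Of the leukaemia and myeloid identity list 3 of 9 genes were tested and 2 were higher in blood, PTPRC by 1.09 and ANPEP by 1.09, with MEIS1 at -0.37 ± 0.16 (adjusted p = 0.0699). MEIS1 was detected on every array and ANPEP on 8 of 8 blood, 8 of 8 spleen and 5 of 8 marrow arrays. PTPRC, the gene of the sorting antigen CD45, was detected on 6 of 8 blood, 5 of 8 spleen and 3 of 8 marrow arrays, and MPO, NPM1 and KIT on none. A gene whose probes were not detected, NPM1 among them, is not thereby shown to be absent from the cells.

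The small RNA mean ran from 7.85 to 11.78 in spleen, and the highest of these was mouse 8, the lower of the 72 h pair for the mitosis genes. In control blood it was 11.85, 11.01 and 11.81, with mouse 6 inside the range of the other blood arrays. The part of these markers in the mitosis gene results was not tested.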

How the data were processed

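Per the labels' protocols, RNA went through 2 rounds of amplification before biotin labelling, and was read on Illumina human BeadChips, whose tables hold 47231 probes. The authors deposited a table of mean bead intensity per probe on a linear scale without background subtraction, exported by GenomeStudio per the submitters' processing notes (its version is not known from them). It also holds a detection p-value per probe and array, deposited in steps of 1 in 770. A second deposited table holds the same intensity minus 1 constant per array, from 49.7 to 64.5, with no scaling between arrays. No genome build is named for the array.

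The neqc function (limma 3.58.1, R 4.3.3) estimated background from the detection p-values, added 16, applied quantile normalisation and took log2. Probes with a detection p under 0.01 on at least 3 of 24 arrays were kept, 17116 of 47231, and the brightest kept probe stood for each of 10351 genes. Tests were two-sided, by limma, with p-values adjusted over all genes by Benjamini-Hochberg and a threshold of 0.05. Site comparisons used all 24 arrays and had the mouse as a fixed term (the replicate block), since title numbers mark the mouse, and "all mice" is the equal mean of the 3 treatment groups. Deviations of arrays from 1 mouse at different sites correlated by 0.284 on average over 24 pairs. Pairs from different mice of the same treatment, also at different sites, gave -0.162 over 42 pairs. Deviations sum to 0 within a group, so the second value largely follows from the first and is no separate support for the pairing. Treatment comparisons within a site used 9 group means, and those over sites used 1 mean per mouse. P-values of site comparisons measure how site differences vary between mice, since the mouse term removes each mouse's own level. Those of treatment within a site pool the spread in all 9 groups and count the 3 arrays of a mouse as independent. Those over sites measure the spread between mouse means. Each mouse had 1 array per site. The number of arrays limits the precision. A gene detected on no array of a group is given as "at least N-fold", its values raised to the lowest detected signal of each array. The tests were also run on simulated data with independent noise on each array and, for treatment, no differences between mice. Such data cannot show how the treatment tests behave when arrays of 1 mouse correlate, as they did here.

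The members, lists, named genes and tests were chosen with earlier results of these data known. Genes given in full were 14 picked by role plus the 3 largest and 3 smallest blood to marrow differences, and up to 4 genes of each other list with the smallest p. CENPF in 24 h spleen, genes behind counts of 5 or fewer and CDK inhibitors outside that rule were named after their values were seen. Alternatives in normalisation, filter, probe choice, block, BeadChip and arrays left out were run.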

Additional observations from a re-analysis of the deposited data

How the results depend on the processing

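Counts of members past the threshold were recomputed under 21 alternatives in 24 comparisons, 456 counts in all, of which 337 stayed within 1.5 times the reported count. A reported count of 0 that stayed at 0 is among these 337, so the share does not describe the comparisons that had calls. Recomputed counts, here and above, are of calls in either direction. The share of all genes called under each alternative is not given beside them, so a larger count need not exceed background. Gene by gene, blood minus marrow over all mice kept its sign in all 769 recomputed values and lost its call in 67, and 24 h spleen kept its sign in all 730, lost its call in 118 and gained one in 27. Only the 20 members called in 24 h spleen could lose a call there. Of these, 18 did with unscaled deposited values, 16 without mouse 4 and 0 with quantile normalised raw intensities. Leaving out 1 mouse at a time, blood minus marrow counts ran 34 to 38 over all mice, 0 to 35 in controls, 18 to 29 at 24 h and 3 to 23 at 72 h, spleen minus marrow 0 to 2 over all mice, 0 to 10 at 24 h, and blood minus spleen 19 to 32 over all mice, 0 to 28 in controls, 0 to 7 at 24 h and 0 to 6 at 72 h. For treatment they ran 4 to 22 in 24 h spleen, 0 to 14 in 72 h spleen, 0 to 7 and 0 to 13 in 24 h and 72 h blood, 0 to 1 and 0 to 1 in 24 h and 72 h marrow, 0 to 6 and 0 to 16 for 24 h and 72 h mouse means, and 0 to 1 and 0 to 1 for the dependence of blood minus marrow on treatment. The lowest control counts came without mouse 6 (blood minus marrow) and mouse 5 (blood minus spleen).

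Without the replicate block the counts were 36 for blood minus marrow over all mice, 13 in controls, 8 at 72 h, 0 for spleen minus marrow at 24 h, and 1 in controls and 0 at 72 h for blood minus spleen. Within BeadChip 1 they were 12 (blood minus marrow, all mice), 0 (controls), 2 (spleen minus marrow, 24 h), 0 and 0 (blood minus spleen, all mice and controls), 0 (24 h spleen) and 0 (24 h mouse means). Within BeadChip 2 they were 6 and 10 (blood minus marrow, controls and 72 h), 7, 0 and 0 (blood minus spleen, all mice, controls and 72 h), and 0, 0 and 0 (72 h marrow, blood and mouse means). These use fewer mice, with 1 control mouse on BeadChip 1. With the BeadChip as a block, 3 were called in 72 h blood and 0 and 0 in 24 h and 72 h mouse means.

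Unscaled deposited values moved the median of all genes to -0.22 in blood minus marrow, where the median member stood at -1.32. Counts there were 1 and 0 (blood minus marrow, controls and 72 h), 0 (spleen minus marrow, 24 h), 0 and 0 (blood minus spleen, controls and 72 h), 2 (24 h spleen) and 0 (24 h mouse means). With no detection filter they were 20 (blood minus marrow, controls), 2 (spleen minus marrow, 24 h), 9 and 2 (blood minus spleen, controls and 72 h), 2 (72 h blood), and 1 and 1 (24 h and 72 h mouse means). With probes detected on all 24 arrays, which leaves 28 members, they were 3 (blood minus spleen, 72 h), 0, 3 and 3 (72 h marrow, blood and mouse means). Raw intensities without background correction gave 1 (spleen minus marrow, all mice), 30 (blood minus spleen, controls) and 4 (24 h mouse means), quantile normalised deposited values 2 (spleen minus marrow, 24 h), and the mean of all probes 1 (spleen minus marrow, all mice). Without the 72 h blood array of mouse 8 the counts were 1 (spleen minus marrow, all mice), 28 and 0 (blood minus spleen, controls and 72 h) and 0 (72 h blood). Without the control blood array of mouse 6, an alternative chosen after seeing the data, they were 0 (blood minus marrow, controls), 6 and 14 (spleen minus marrow, all mice and 24 h), 0, 1 and 9 (blood minus spleen, controls, 24 h and 72 h) and 16 (72 h blood). Beyond the settings that use fewer mice or genes, the cause was not tested. INCENP, PLK1 and MKI67 are the members that background limits most.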
